A study of Mus musculus with 9 samples.

Results

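The Polycomb group genes described here are 9 subunits of the Polycomb repressive complexes, *Ezh1*, *Ezh2*, *Eed* and *Suz12* of PRC2 and *Cbx7*, *Cbx8*, *Bmi1*, *Ring1* and *Rnf2* of PRC1, taken by gene symbol from a table of 21883 genes. RNA was sequenced from invariant natural killer T (iNKT) cells, T cells that recognise glycolipids on CD1d, sorted from the mouse thymus at the last steps of their maturation. There were 3 libraries each of WT stage 2 cells (CD24lo CD44hi NK1.1lo), of WT stage 3 cells, which have gained NK1.1, and of *Med23*-deficient stage 2 cells. Stage 3 against stage 2 asked what changes at terminal maturation, and *Med23*-deficient against WT stage 2 what changes when a subunit of the Mediator complex is lost. All mice were C57BL/6. The WT mice were 6 weeks old, and the labels give no age for the *Med23*-deficient mice. In the latter a floxed *Med23* allele was deleted by Cre driven by the *Cd4* promoter, which acts by the CD4+ CD8+ double-positive thymocyte stage, so the cells had lacked the gene since before they became iNKT cells. Whether a library came from 1 animal or from pooled animals was not stated, so p-values measure only the spread between these libraries.

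PRC2 places methyl groups on lysine 27 of histone H3 through either of its alternative enzymes, *Ezh1* or *Ezh2*, while *Eed* and *Suz12* are needed for activity. PRC1 attaches ubiquitin to histone H2A through *Ring1* or *Rnf2*, with *Bmi1* or another PCGF protein as the partner of the enzyme, and CBX proteins such as *Cbx7* and *Cbx8* let it bind the mark that PRC2 leaves. In lymphocytes *Ezh2* is known to be abundant in dividing cells and *Ezh1* in resting ones, and loss of *Ezh2* is known to enlarge the iNKT pool through the transcription factor PLZF, encoded by *Zbtb16*.

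The values are FPKM, scaled for gene length and sequencing depth, as the authors deposited them. Fold changes are differences of log2(FPKM + 1) from limma, and adding 1 shrinks those of weakly expressed genes. A gene was called when its p, adjusted over the genes tested by Benjamini-Hochberg, did not exceed 0.05. The thresholds of the study, a fold change of 2 or more with an unadjusted p up to 0.05, were applied beside it. With 3 libraries a group, exact permutation cannot reach a p below 0.10, so it was not used for single genes. The depth of the libraries is unknown, and between 15584 and 17333 genes per library were above an FPKM of 0. *Med23* itself measured 4.80, 3.60 and 3.92 FPKM where it had been deleted, 5.51, 5.15 and 6.74 FPKM in those of WT stage 2 and 7.14, 4.44 and 6.12 FPKM in those of WT stage 3. The *Med23*-deficient values lay below all WT stage 2 values, but overlapped those of stage 3 (log2 fold change -0.41 against WT stage 2, limma adjusted p = 0.552). A value summed over all exons does not show whether the deleted exons were transcribed.

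All 9 genes were detected in all 9 libraries, from 1.6 FPKM for *Ezh2* to 22.8 FPKM for *Rnf2*. For 4 of them, the levels in WT stage 2 did not overlap with those in either of the other groups: *Ezh2* and *Rnf2* were highest in WT stage 2, and *Ezh1* and *Cbx7* were lowest there. Such separation was seen for 17.8% of all genes tested when stage 3 was set against stage 2, and for 14.0% when *Med23*-deficient cells were. Among genes whose mean FPKM was 1 or more, which includes all 9 members, it was seen for 24.5% and 19.0%. Both comparisons share the same WT stage 2 libraries, so a low or high value there enters both. None of the 9 members passed an adjusted p of 0.05, which 1.67% of the genes tested passed in the first comparison and 0.213% in the second. When only genes of mean FPKM 1 or more were tested, *Cbx7*, *Ezh2* and *Rnf2* passed in stage 3 (limma adjusted p = 0.0343, 0.0447 and 0.0473), with ranges over all alternatives of 0.0343 to 0.403, 0.0447 to 0.343 and 0.0295 to 0.436. The share of all genes that passed under that setting is not reported here, so these calls cannot be set against it. In each comparison 4 members, *Ezh1*, *Ezh2*, *Cbx7* and *Rnf2*, had an unadjusted limma p no higher than 0.05, as did 13.2% and 9.58% of all genes tested. The thresholds of the study were passed by 0 members in stage 3, against 3.60% of all genes, though by 2 with a pseudocount of 0.1 in place of 1 or in a model without shrinkage (Ballgown-style). They were passed by 1, *Ezh2*, in the *Med23*-deficient cells, against 2.11%, and by 0 there with upper quartile scaling or without *Med23*-deficient replicate 3.

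**Figure D1:**
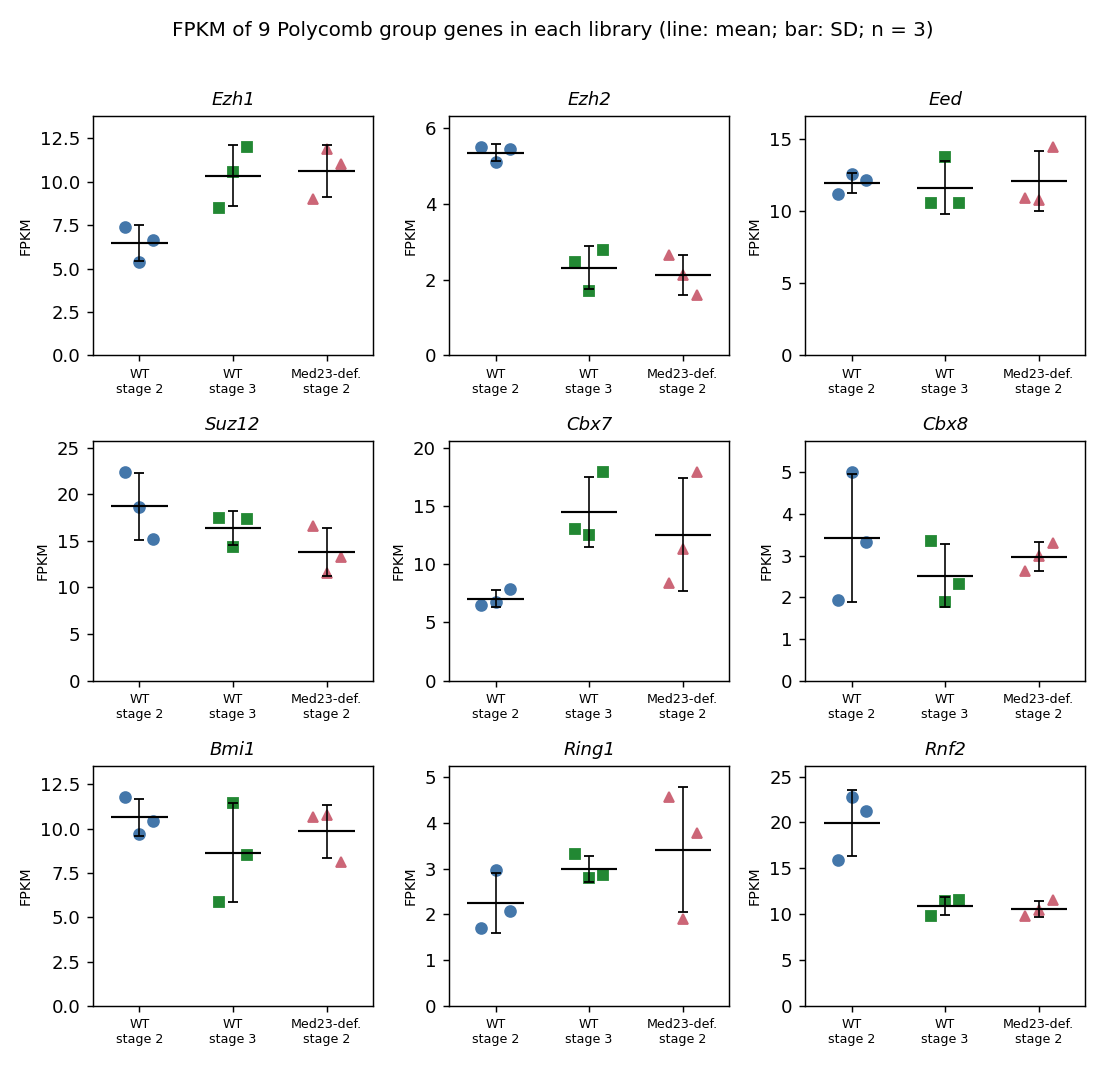
Level of each of the 9 genes in FPKM (vertical axis) in the 3 libraries of each group; each point is a library, the horizontal line the mean and the bar the SD. Ezh2 and Rnf2 are highest and Ezh1 and Cbx7 lowest in all WT stage 2 libraries, and the groups overlap for the other 5 genes.

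Of the enzymes of PRC2, *Ezh2* (ENSMUSG00000029687, chromosome 6, 47530139 to 47595341, mm10, minus strand) measured 5.51, 5.10 and 5.46 FPKM in WT stage 2, 2.47, 1.69 and 2.79 FPKM in WT stage 3 and 2.65, 2.12 and 1.6 FPKM in *Med23*-deficient stage 2. Every WT stage 2 library was above every other library, and the other groups overlapped with each other. The means were 5.36 ± 0.224 FPKM in WT stage 2, 2.32 ± 0.566 in stage 3 and 2.12 ± 0.525 without *Med23* (SD, n = 3 for each). The log2 fold change was -0.95 in stage 3 (standard error 0.20, limma adjusted p = 0.0988) and -1.04 in *Med23*-deficient cells (standard error 0.21, limma adjusted p = 0.173), lower in 3 of 3 libraries each time. In bulk samples, fewer cells that express a gene and less RNA per cell cannot be told apart.

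*Ezh1* (ENSMUSG00000006920, chromosome 11, 101191115 to 101226463, minus strand), the alternative enzyme, showed the opposite order. It measured 7.38, 5.36 and 6.66 FPKM in WT stage 2, 8.49, 10.6 and 12 FPKM in WT stage 3 and 8.98, 11.9 and 11.03 FPKM in *Med23*-deficient stage 2. All WT stage 2 libraries were below all others, though the gap between the highest of them and the lowest stage 3 library was small. The log2 fold changes were 0.60 (standard error 0.18, limma adjusted p = 0.213) and 0.64 (standard error 0.17, limma adjusted p = 0.282), so the difference did not pass the adjusted p in either comparison.

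The promoters of both enzymes are shown because their levels ordered the groups in opposite ways. RefSeq (GRCm38.p6) gave a promoter of 300 bases, 250 before the start of transcription and 50 after it, for all 9 members. E2F factors drive genes of the S phase and are known regulators of *Ezh2*, so the 8-base words TTTCCCGC, TTTCGCGC, TTTGCCGC and TTTGGCGC were searched on both strands, and a match is written in capitals. Such a word was present in 2 of 9 members, TTTGGCGC in *Ezh2* just after the start and TTTCCCGC in *Suz12* further upstream, and in 2.26% of 32851 promoters of the same length. These matches are descriptions of letters and not evidence of binding. The whole *Ezh2* stretch lies just inside the gene span of the table, so its start too is internal to that span.
Ezh2 promoter, chr6:47594981-47595280, minus strand: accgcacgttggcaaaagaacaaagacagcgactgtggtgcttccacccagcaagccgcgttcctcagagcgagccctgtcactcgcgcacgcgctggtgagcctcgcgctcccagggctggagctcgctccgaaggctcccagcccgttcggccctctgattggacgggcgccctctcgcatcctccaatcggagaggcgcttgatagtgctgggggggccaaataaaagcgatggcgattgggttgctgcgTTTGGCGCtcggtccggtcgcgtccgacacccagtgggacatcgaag
Ezh1 promoter, chr11:101226414-101226713, minus strand: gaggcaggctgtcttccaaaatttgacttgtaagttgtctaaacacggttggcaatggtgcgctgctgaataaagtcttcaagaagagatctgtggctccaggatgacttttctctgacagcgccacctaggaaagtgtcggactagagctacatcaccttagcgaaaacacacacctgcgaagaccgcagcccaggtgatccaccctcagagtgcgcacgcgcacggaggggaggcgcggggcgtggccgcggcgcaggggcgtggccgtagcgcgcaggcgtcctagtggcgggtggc

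The non-catalytic subunits of PRC2 did not separate the groups. *Eed* (ENSMUSG00000030619, chromosome 7, 89954654 to 89980983), which binds the methylated histone tail, ranged from 10.5 to 14.5 FPKM over the 9 libraries, with log2 fold changes of -0.05 in stage 3 and 0.00 in *Med23*-deficient cells (limma adjusted p = 0.896 and 0.999). The 95% intervals, -0.38 to 0.29 and -0.35 to 0.35, show how large a change could have been missed. *Suz12* (ENSMUSG00000017548, chromosome 11, 79993106 to 80034123), the scaffold of the complex, measured 22.4, 18.6 and 15.2 FPKM in WT stage 2, 17.5, 14.3 and 17.4 FPKM in stage 3 and 16.5, 11.5 and 13.3 FPKM in *Med23*-deficient cells. Its groups overlapped, with log2 fold changes of -0.17 and -0.41 (limma adjusted p = 0.68 and 0.562). Over all alternatives these ranged from -0.54 to -0.04 and from -0.55 to -0.28. The direction for *Eed*, which is close to 0, turned with the scaling. Scaling all libraries to the same sum (the TPM scale) moved the median log2 fold change of genes whose mean FPKM was 1 or more from -0.05 in both comparisons to -0.14 and -0.16, and upper quartile scaling moved it to 0.02 and 0.04.

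Among the enzymes of PRC1, *Rnf2* (Ring1B; ENSMUSG00000026484, chromosome 1, 151458004 to 151500955, minus strand) was, with *Suz12*, among the most abundant members in WT stage 2. It measured 15.9, 22.8 and 21.2 FPKM there, 9.80, 11.4 and 11.5 FPKM in WT stage 3 and 9.79, 10.4 and 11.6 FPKM in *Med23*-deficient stage 2. All WT stage 2 libraries were above all other libraries, and the other groups were nearly the same. The log2 fold change was -0.80 in stage 3 (standard error 0.16, limma adjusted p = 0.081) and -0.84 without *Med23* (standard error 0.16, limma adjusted p = 0.148). With all 9 libraries in 1 fit, *Rnf2* passed in both comparisons (limma adjusted p = 0.0295 and 0.0491), but over all alternatives the adjusted p ranged from 0.0295 to 0.436 and from 0.0491 to 0.566. *Ring1* (ENSMUSG00000024325, chromosome 17, 34020792 to 34024680), its paralog, was lower than *Rnf2* in every library and measured 1.70, 2.97 and 2.07 FPKM in WT stage 2, 3.31, 2.79 and 2.87 FPKM in stage 3 and 4.56, 1.90 and 3.78 FPKM in *Med23*-deficient cells, with groups that overlapped. *Rnf2* overlaps on the genome with *Trmt1l* on the other strand, which measured 4.81 ± 1.64, 4.95 ± 0.828 and 4.56 ± 0.411 FPKM (SD, n = 3 each) in the same order.

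*Cbx7* (ENSMUSG00000053411, chromosome 15, 79915807 to 79971119, minus strand), a reader of the methylated histone, measured 6.48, 6.73 and 7.86 FPKM in WT stage 2, 13.0, 12.5 and 17.9 FPKM in WT stage 3 and 8.41, 11.3 and 17.9 FPKM in *Med23*-deficient stage 2. No library outside WT stage 2 was as low as those of WT stage 2, but the *Med23*-deficient libraries were widely spread. The log2 fold change was 0.93 in stage 3 (standard error 0.17, limma adjusted p = 0.066) and 0.70 in *Med23*-deficient cells (standard error 0.27, limma adjusted p = 0.477). Without *Med23*-deficient replicate 3 the latter was 0.43. *Cbx7* overlaps with *Apobec3* on the other strand, at 17.5 ± 2.44 FPKM (SD, n = 3) in WT stage 2, 21.2 ± 1.58 in stage 3 and 13.6 ± 2.67 without *Med23*, and it is not stated whether the counting used strand, so some reads may be shared. *Cbx8* (ENSMUSG00000025578, chromosome 11, 119036305 to 119040969), another reader, ranged from 1.88 to 5.01 FPKM and *Bmi1* (ENSMUSG00000026739, chromosome 2, 18677018 to 18686629), the partner of the PRC1 enzyme, from 5.89 to 11.8 FPKM, and both overlapped between all groups. Their log2 fold changes were -0.29 and -0.10 for *Cbx8* (limma adjusted p = 0.724 and 0.93) and -0.31 and -0.11 for *Bmi1* (limma adjusted p = 0.667 and 0.819). Both directions of *Cbx8* turned in the Ballgown-style model, and in *Med23*-deficient cells that of *Cbx8* turned without WT stage 2 replicate 2 and that of *Bmi1* without *Med23*-deficient replicate 3.

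The promoters of *Rnf2* and *Cbx7*, the PRC1 members whose groups did not overlap, hold none of the E2F words. The start of *Cbx7* in RefSeq lies far inside the longer gene span of the table, so the stretch shown is at an internal start.
Rnf2 promoter, chr1:151500942-151501241, minus strand: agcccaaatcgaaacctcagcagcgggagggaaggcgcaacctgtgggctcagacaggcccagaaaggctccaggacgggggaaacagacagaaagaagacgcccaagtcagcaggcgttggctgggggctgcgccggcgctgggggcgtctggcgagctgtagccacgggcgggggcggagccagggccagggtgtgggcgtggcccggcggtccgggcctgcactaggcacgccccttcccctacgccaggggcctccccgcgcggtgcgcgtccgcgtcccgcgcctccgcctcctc
Cbx7 promoter, chr15:79932597-79932896, minus strand: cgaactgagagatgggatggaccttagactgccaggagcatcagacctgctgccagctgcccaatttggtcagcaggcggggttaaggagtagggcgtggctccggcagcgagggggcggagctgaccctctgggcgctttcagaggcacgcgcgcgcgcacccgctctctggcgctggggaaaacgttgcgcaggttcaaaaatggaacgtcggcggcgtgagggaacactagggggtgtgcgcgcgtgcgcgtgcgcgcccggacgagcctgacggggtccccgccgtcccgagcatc
CG dinucleotides ranged from 17 in *Eed* to 41 in *Suz12* over the 9 promoters, against a median of 7 over all promoters, and 31.4% of all promoters held at least 17. CCAAT was found on either strand in 5 of 9 and in 37.4% of all promoters, and GGGCGG in 6 of 9 and in 35.7%.

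**Figure D2:**
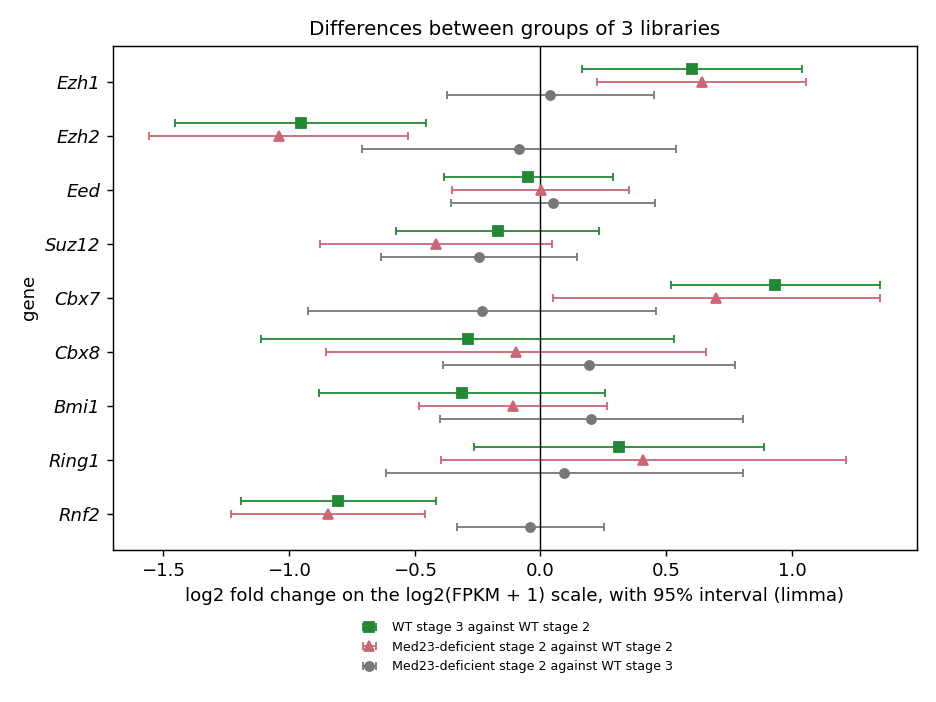
Log2 fold change on the log2(FPKM + 1) scale (horizontal axis) with its 95% interval for each gene, in the comparisons of WT stage 3 and of Med23-deficient stage 2 with WT stage 2, and of Med23-deficient stage 2 with WT stage 3. Ezh2 and Rnf2 lie left of 0 and Ezh1 and Cbx7 right of it in the first pair, and all 9 intervals of the last include 0.

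By their means, the members in WT stage 2 were ordered *Rnf2* (20.0 FPKM), *Suz12* (18.7), *Eed* (12), *Bmi1* (10.6), *Cbx7* (7.02), *Ezh1* (6.47), *Ezh2* (5.36), *Cbx8* (3.42) and *Ring1* (2.25). In WT stage 3 *Suz12* (16.4 FPKM) was first, then *Cbx7* (14.5), *Eed* (11.6), *Rnf2* (10.9), *Ezh1* (10.4), *Bmi1* (8.63), *Ring1* (2.99), *Cbx8* (2.52) and *Ezh2* (2.32). *Ezh2* also had the lowest mean in *Med23*-deficient stage 2, at 2.12 FPKM, and *Suz12* the highest, at 13.8 FPKM. Neighbours whose means lie within an SD of each other cannot be ranked. In WT stage 2 these were *Rnf2* and *Suz12*, *Cbx7* and *Ezh1*, and *Cbx8* and *Ring1*. In stage 3 they were all neighbours but *Bmi1* and *Ring1*, and in *Med23*-deficient cells all but *Bmi1* and *Ring1* and, at the low end, *Cbx8* and *Ezh2*. The summed level of the 9 members was between 84.3 and 88.8 FPKM in WT stage 2, between 74.3 and 85.9 FPKM in stage 3 and between 73.7 and 85.0 FPKM in *Med23*-deficient cells.

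Paralogs were also set against each other within each library. The log2 ratio of *Ezh1* to *Ezh2*, from FPKM + 1, was 0.36, 0.06 and 0.25 in WT stage 2, 1.45, 2.10 and 1.78 in WT stage 3 and 1.45, 2.05 and 2.21 in *Med23*-deficient stage 2. The enzymes were near equal in the first group and *Ezh1* was ahead in every library of the others, with no overlap. The ratio of *Ring1* to *Rnf2* was -2.65, -2.58 and -2.86 in WT stage 2, -1.33, -1.71 and -1.70 in stage 3 and -0.96, -1.97 and -1.39 without *Med23*, so *Rnf2* led in all 9 libraries but by less outside WT stage 2. The ratio of *Cbx7* to *Cbx8* was 1.35, 0.36 and 1.04 in WT stage 2, 1.68, 2.23 and 2.51 in stage 3 and 1.37, 1.63 and 2.13 without *Med23*, with the lowest value of the last group just above the highest of the first. These ratios are descriptions and were not tested.

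**Figure D3:**
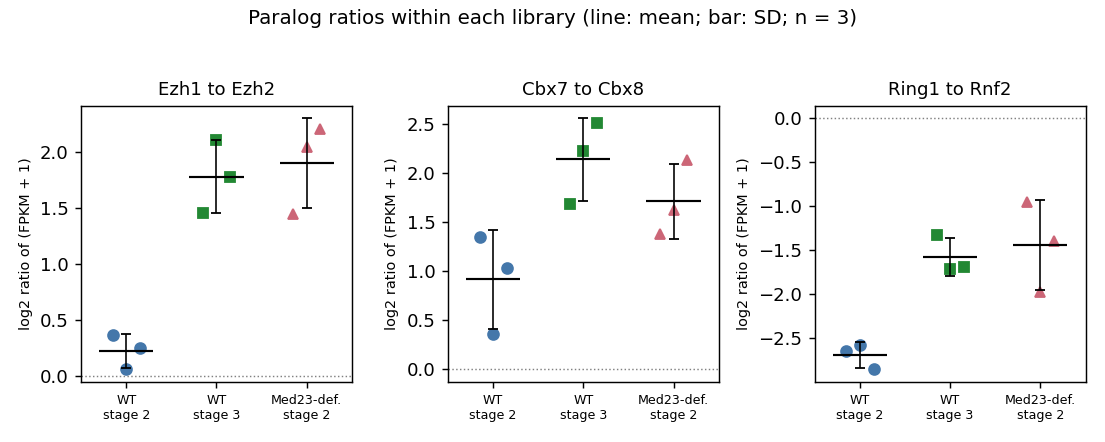
Log2 ratio of FPKM + 1 (vertical axis) of Ezh1 to Ezh2, Cbx7 to Cbx8 and Ring1 to Rnf2 in each library; points are libraries, lines means and bars SD. The Ezh1 to Ezh2 ratio is at or below 0.36 in WT stage 2 and at or above 1.45 in all 6 other libraries.

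Because *Med23*-deficient stage 2 and WT stage 3 both differed from WT stage 2, they were compared directly, a comparison chosen after seeing the data. Of the 9 members 0 had groups that did not overlap, against 14.2% of the genes tested, and 0 passed an adjusted p of 0.05 in limma, against 1.33%, or an unadjusted p of 0.05, against 10.2%. The log2 fold change was -0.09 for *Ezh2* (95% interval -0.71 to 0.54), 0.04 for *Ezh1* (-0.37 to 0.45), -0.04 for *Rnf2* (-0.33 to 0.25) and -0.23 for *Cbx7* (-0.93 to 0.46). The intervals of *Ezh2* and *Cbx7* are the widest of these, so larger differences could have been missed for them.

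The genes whose levels were most like *Ezh2* over the 9 libraries, among 5693 genes whose mean FPKM was 5 or more, included *Dut* (Pearson r = 0.960), *Srsf3* (0.952), *Nup205* (0.946) and *mt-Tw* (0.936). For *Ezh1* they were *Dedd2* (0.948), *Unkl* (0.933), *Snora30* (0.925), *Jade2* (0.920) and *Tigit* (0.905). These values are descriptions from 9 libraries in 3 groups and say nothing of shared control.

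Of the 8 measured partners of PRC2, 3 were higher in stage 3 and 5 lower. Their median log2 fold change was -0.21 against -0.01 over all genes tested, and none passed the adjusted p. *Phf1*, which helps PRC2 bind its targets, measured 10.9 ± 4.04 FPKM (SD, n = 3) in WT stage 2, 24 ± 3.37 in stage 3 and 16.5 ± 0.352 in *Med23*-deficient cells, with no overlap between any groups, and its log2 fold changes were 1.11 and 0.60 (limma adjusted p = 0.11 and 0.486). In stage 3 *Phf1* passed with only genes of mean FPKM 1 or more and with all 9 libraries (limma adjusted p from 0.0365 to 0.482 over all alternatives). The largest decrease was that of *Aebp2* in stage 3 (log2 fold change -0.50, limma adjusted p = 0.125) and of the histone-binding subunit *Rbbp7* in *Med23*-deficient cells (-0.35, limma adjusted p = 0.382). In *Med23*-deficient cells 1 of the 8 was higher and 7 lower, with a median of -0.18.

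Among the 8 measured canonical PRC1 partners, *Cbx6* measured 10.3, 8.89 and 9.65 FPKM in WT stage 2, 5.25, 5.09 and 3.86 FPKM in WT stage 3 and 9.42, 7.36 and 7.02 FPKM in *Med23*-deficient stage 2. It was lower in every stage 3 library (log2 fold change -0.90, standard error 0.16, limma adjusted p = 0.0587), while the *Med23*-deficient libraries overlapped with WT stage 2 (-0.26, limma adjusted p = 0.673). In stage 3 it passed the adjusted p with only genes of mean FPKM 1 or more, with no trend and with all 9 libraries (limma adjusted p from 0.025 to 0.309 over all alternatives). *Phc3*, a component that helps PRC1 cluster, had the largest increase in stage 3 (0.77, limma adjusted p = 0.191), and *Pcgf2*, a partner like *Bmi1*, the largest in *Med23*-deficient cells (0.60, limma adjusted p = 0.468), while *Cbx2* had the largest decrease there (-0.39, limma adjusted p = 0.731), a direction that turned in the Ballgown-style model. The list's medians were 0.05 and -0.05, close to those of all genes.

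Of the 13 partners of variant PRC1, which does not need a CBX protein, 6 were higher and 7 lower in stage 3 (median -0.01), and 10 were higher and 3 lower in *Med23*-deficient cells (median 0.06). The largest increases were *Rybp* in stage 3 (0.25, limma adjusted p = 0.603) and *Yaf2* in *Med23*-deficient cells (0.66, limma adjusted p = 0.495), 2 related proteins that occupy the place of CBX, and the largest decrease was *E2f6* in both (-0.37 and -0.42). *Kdm2b* and *Bcor*, subunits of the form of PRC1 that binds CG-rich DNA, were picked after their values were seen. *Kdm2b* measured 7.81, 7.78 and 7.84 FPKM in WT stage 2, 5.95, 8.56 and 6.10 FPKM in stage 3 and 11.9, 11.5 and 11.6 FPKM in *Med23*-deficient cells (log2 fold change 0.52 against WT stage 2, limma adjusted p = 0.166). *Bcor* was at 31.0 ± 1.88 FPKM (SD, n = 3) in *Med23*-deficient cells, against 25.7 ± 5.07 in WT stage 2 and 20.6 ± 0.300 in WT stage 3. Among the 52 measured Polycomb list genes it alone passed the adjusted p in the direct comparison with stage 3 (0.57, limma adjusted p = 0.0394). Of all genes tested there 1.33% passed, so 1 of 52 is near that share. The call of *Bcor* was lost when any 1 library was left out.

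Of 7 genes of the deubiquitinase PR-DUB, which removes the mark of PRC1, *Asxl2* had the largest increase in stage 3 (log2 fold change 0.54, limma adjusted p = 0.214) and *Mbd5* the largest decrease (-0.18, turned in the Ballgown-style model), and in *Med23*-deficient cells these were *Mbd6* (0.28) and *Foxk2* (-0.17). Among 7 enzymes that oppose Polycomb, the H3K27 demethylase *Kdm6b* measured 24.2 ± 4.31 FPKM (SD, n = 3) in WT stage 2, 16.1 ± 1.58 in stage 3 and 15.4 ± 0.992 in *Med23*-deficient cells, with WT stage 2 above all other libraries (-0.55 and -0.60, limma adjusted p = 0.188 and 0.23). The related demethylase *Kdm6a* had the largest increase of this list in stage 3 (0.55, limma adjusted p = 0.413) and the methyltransferase *Kmt2a* in *Med23*-deficient cells (0.26, limma adjusted p = 0.76), which was gone without *Med23*-deficient replicate 3. In all, 0 of the 52 measured genes of the Polycomb lists passed the adjusted p in either comparison with WT stage 2. Of all genes 1.67% and 0.213% passed it, so few or none of 52 would be called at those shares. An unadjusted limma p of 0.05 was reached by 11 and 10 of the 52, against 13.2% and 9.58% of all genes.

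**Figure D4:**
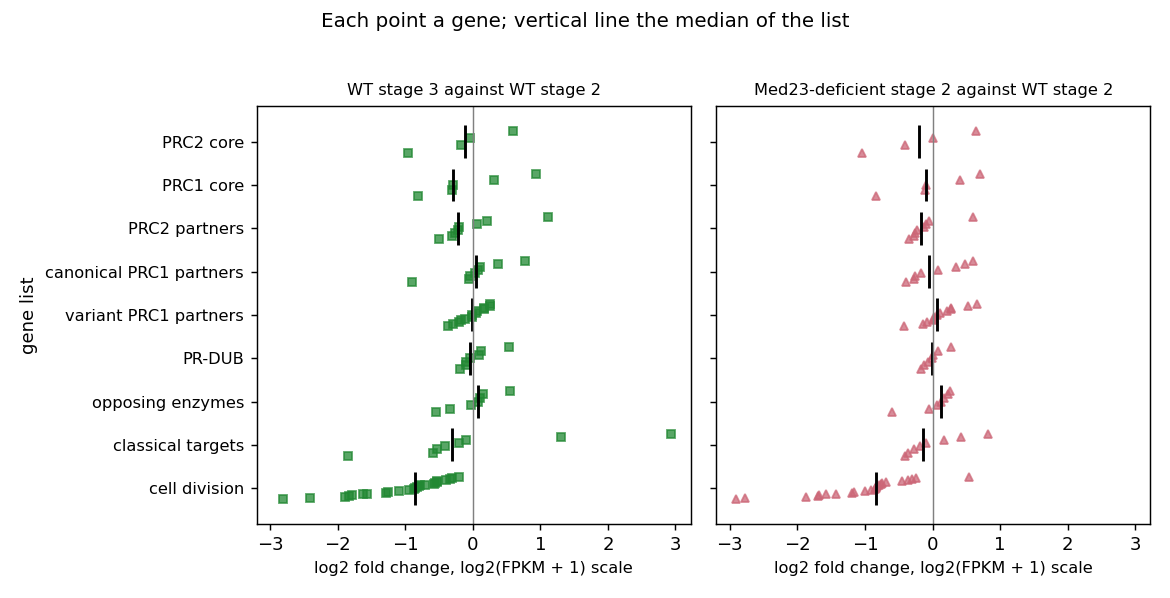
Log2 fold change on the log2(FPKM + 1) scale (horizontal axis) of the genes of each list (vertical axis) against WT stage 2, for WT stage 3 on the left and Med23-deficient stage 2 on the right; points are genes and lines medians. The medians of the lists of Polycomb complexes and opposing enzymes lie between -0.29 and 0.12, and the cell division list lies to the left, with medians of -0.86 and -0.84.

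Of 8 measured genes known as Polycomb targets, *Zbtb16*, the gene of PLZF, was at 101 ± 12.3 FPKM in WT stage 2 and fell to 27.5 ± 5.41 FPKM in stage 3 (SD, n = 3 for each; log2 fold change -1.85, limma adjusted p = 0.0122). *Ifng* was at 3.31 ± 2.23 FPKM and rose to 30.4 ± 10.4 FPKM (SD, n = 3 for each; log2 fold change 2.93, limma adjusted p = 0.0343). The call of *Zbtb16* was lost under 2 of 9 other settings and in 2 of 6 fits with a library left out (limma adjusted p from 0.00178 to 0.205), and that of *Ifng* under 2 of 9 and in 5 of 6 (0.00678 to 0.313). In *Med23*-deficient cells neither passed the test (-0.37 and 0.17, limma adjusted p = 0.483 and 0.902), and *Gata3* had the largest increase (0.82, limma adjusted p = 0.0786). *Gata3* passed with only genes of mean FPKM 1 or more and with all 9 libraries (limma adjusted p from 0.0172 to 0.566 over all alternatives). It also passed in the direct comparison with stage 3 (log2 fold change 1.02, limma adjusted p = 0.0175). In that direct comparison *Zbtb16* differed too (log2 fold change 1.48, limma adjusted p = 0.0212), as did *Ifng* in the other direction (-2.76, limma adjusted p = 0.0178). Whether the direct calls of *Gata3*, *Zbtb16* and *Ifng* held under the alternatives is not reported here. The levels of *Ezh2* in WT stage 3 and *Med23*-deficient cells overlapped, and any link between *Ezh2* and these genes was not tested. *Cdkn2a*, the locus that Polycomb is best known to silence, was listed at 0 in 7 of 9 libraries.

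Of 25 measured genes of cell division, 19 did not overlap between stage 3 and WT stage 2, against 17.8% of all genes tested. Between *Med23*-deficient cells and WT stage 2, 20 did not, against 14.0%. Among genes whose mean FPKM was 1 or more the shares were 24.5% and 19.0%. *Ezh2* and *Rnf2* did not overlap in either comparison. By log2 fold change all 25 were lower in stage 3 and 24 of 25 in *Med23*-deficient cells, the exception being *Aurka*, with medians of -0.86 and -0.84 against -0.01 over all genes. Their summed level was 220, 226 and 253 FPKM in WT stage 2, 117, 142 and 105 FPKM in WT stage 3 and 114, 111 and 106 FPKM in *Med23*-deficient stage 2, so the WT stage 2 libraries stood above the rest as for *Ezh2*. *Mki67* fell from 28.9 ± 6.32 FPKM (SD, n = 3) to 3.80 ± 3.19 in stage 3 and 3.01 ± 0.985 in *Med23*-deficient cells (log2 fold changes -2.81 and -2.91, limma adjusted p = 0.049 and 0.0301). These calls were not stable. In stage 3 that of *Mki67* was lost under 6 of 9 other settings and in 5 of 6 fits with a library left out (limma adjusted p from 0.0137 to 0.541), and in *Med23*-deficient cells under 2 of 9 and in 6 of 6 (0.00261 to 0.444). Also past the adjusted p were *Bub1* (-0.87) and *Birc5* (-1.62) in stage 3, and *Ccnb2* (-2.77), *Mcm3* (-0.84) and *Pcna* (-0.92) in *Med23*-deficient cells. All of these were lost in the Ballgown-style model and the replicate block, and, but for *Bub1* (4 of 6), in every fit with a library left out. *Pcna*, the most abundant of the list by the mean of 9 libraries, overlapped between WT stage 2 and stage 3, from 25.5 to 34.4 FPKM. In *Med23*-deficient cells it ranged from 16.4 to 18.1 FPKM. There its mean (17.3 FPKM) was below those of *Mcm4* (19.6 FPKM) and *Mcm6* (18.7 FPKM).

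**Figure D5:**
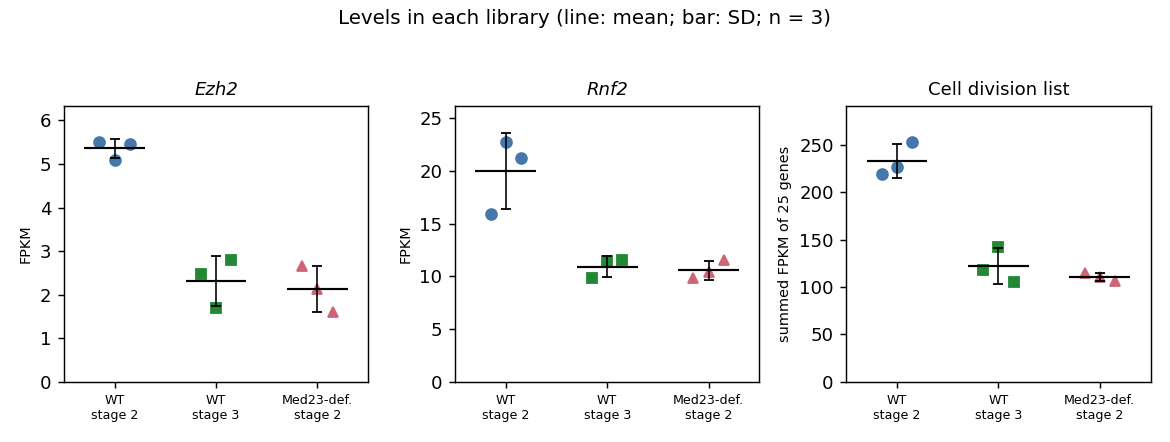
Levels in FPKM (vertical axis) of Ezh2 and Rnf2, and summed level of the 25 cell division genes, in each library; points are libraries, lines means and bars SD. All are highest in the WT stage 2 libraries.

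The markers of other cells were looked at beside these values. Of the markers of NKT17 cells, *Il23r* measured 5.48, 3.13 and 6.36 FPKM in WT stage 2, 1.6, 0.14 and 0 FPKM in stage 3 and 0 in every *Med23*-deficient library. *Il1r1* measured 2.23, 4.23 and 5.01 FPKM in WT stage 2 and did not pass 0.12 FPKM in any other library, and *Ccr6* did not pass 1.35 FPKM anywhere. WT stage 2 was highest for *Il23r* and *Il1r1* too, and the part of the NKT17 cells or of the dividing cells in the Polycomb levels was not tested. The 3 measured NK cell markers summed to 11.3 ± 3.97, 102 ± 6.39 and 1.73 ± 0.906 FPKM (SD, n = 3 each), most of it *Klrd1*. Stage 3 cells were sorted by their gain of NK1.1, which the paper describes as going with other NK receptors, so high values there come with the sort. The 5 gamma-delta markers summed to 308 ± 14.8, 284 ± 22.1 and 8.91 ± 0.205 FPKM (SD, n = 3 each), in both WT groups almost all from the gamma chain genes, led by *Tcrg-C2*, while *Trdc*, the gene that defines these cells, did not pass 0.38 FPKM. Of 3 measured B cell markers, *Cd79a* and *Cd79b* did not pass 0.5 FPKM, and *Ighm* was at 40.5 ± 9.26, 50.4 ± 4.54 and 93.4 ± 9.63 FPKM (SD, n = 3 each). The summed double-positive thymocyte markers (7 genes) lay between 1.07 and 5.05 FPKM. *Rag1* led them by the mean of 9 libraries. *Cd8b1* was above it in WT stage 2 (1.41 against 0.81 FPKM) and in *Med23*-deficient cells (1.04 against 0.82 FPKM). Summed myeloid (3 measured), erythroid (*Hbb-bs*) and thymic epithelial markers (2 measured, led by *Epcam*) did not pass 1.69 FPKM in any library. *Lyz2* led the myeloid markers by the same mean, but was at 0 in every WT stage 2 library. *Cd3e* and *Cd3g* were above 110 FPKM in all 9 libraries, *Cd24a* did not pass 0.72 FPKM, and *Klrb1c*, the gene of NK1.1, at 16.3, 26.2 and 7.65 FPKM in WT stage 2, 95.1, 57.3 and 72.7 FPKM in stage 3 and 4.6, 2.61 and 3.04 FPKM in *Med23*-deficient cells.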

How the data were processed

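FPKM of 21883 genes in 9 libraries, 3 a group, were taken from the table the authors deposited. Per the study's methods, libraries came from a stranded total RNA kit, and reads were trimmed with Trimmomatic 0.36, aligned to mm10 with HISAT2, and quantified on GENCODE vM12 with StringTie from reads hitting few loci. No counts were used, and low values are not multiples of a read, so the depth could not be recovered and counting error is not given. limma 3.58.1 (R 4.3.3; lmFit and eBayes with trend) was run on log2(FPKM + 1), 6 libraries a fit, leaving out genes at 0 throughout (20689, 20674 and 20846 genes remained), and the code was tried on simulated data. Named genes are the 9 members, *Med23*, list genes at an adjusted p of 0.05 in either comparison with WT stage 2, in each list the largest increase and decrease among genes whose mean FPKM was 1 or more, and the 5 genes most like *Ezh1* and *Ezh2* by Pearson correlation. The alternatives were a pseudocount of 0.1, only genes whose mean FPKM was 1 or more, the TPM scale with and without Gm23935, an upper quartile scaling, no trend, all 9 libraries, a model without shrinkage that holds library size as Ballgown does (Ballgown-style), the replicate block and each library left out. The direct comparison of *Med23*-deficient stage 2 with WT stage 3 was added after seeing the data. The members and lists were chosen with earlier results of these data known. *Epop*, *Scml2*, *Asxl3*, some Hox genes and some markers were not analysed here, and a few listed or correlated genes are not reported here. Promoters are from RefSeq (GRCm38.p6), read on the strand of the gene.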

Additional observations from a re-analysis of the deposited data

How the results depend on the processing

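No member passed the adjusted p in the main analysis, and the count depended on the genes tested and the fit: with genes of a mean FPKM of at least 1 it was 3 in stage 3 (*Cbx7*, *Ezh2* and *Rnf2*), with no trend 1 (*Ezh2*) and with all 9 libraries 1 (*Rnf2*), and in *Med23*-deficient cells 1 (*Rnf2*) with all 9 libraries. Polycomb list genes passing in stage 3 were 5, 2 and 3 under the same settings, and 1 in *Med23*-deficient cells with all 9 libraries. For the settings with a mean FPKM of at least 1 and with no trend, the share of all genes passing in stage 3 is not reported here. The counts of members and list genes there thus have no background beside them. Members past the fold and p thresholds in stage 3 were 2 with a pseudocount of 0.1, 1 on the TPM scale, 1 with the upper quartile and 2 in the Ballgown-style model (0 to 1 with a library left out), and in *Med23*-deficient cells 0 with the upper quartile and 2 Ballgown-style (0 to 1 with a library left out), against 1. Of 330 alternative values of members, 307 kept their direction and their side of the threshold, 6 newly passed and 17 turned direction. The genes at an adjusted p in stage 3, 346, became 224 on the TPM scale, 626 with all 9 libraries, 5 Ballgown-style and 22 to 137 with a library left out. Those in *Med23*-deficient cells, 44, became 143 with a mean FPKM of at least 1, 27 on the TPM scale without Gm23935, 176 with all 9 libraries, 1 Ballgown-style and 1 to 8 with a library left out. In the direct comparison 278 became 18 Ballgown-style and 72 to 174 with a library left out, and the 1 Polycomb list gene, *Bcor*, became 0 with a pseudocount of 0.1, only genes of mean FPKM 1 or more, the TPM scale without Gm23935, all 9 libraries and Ballgown-style, and 0 with any library left out. Past the fold and p thresholds, 745 and 437 became 1423 and 971 with a pseudocount of 0.1. The share of higher genes at the adjusted p in *Med23*-deficient cells, 31.8%, was 16.1% on the TPM scale, 7.41% without Gm23935 and 43.8% with the upper quartile. The *Ezh1* to *Ezh2* ratio, higher by 1.55 in stage 3 and by 1.68 in *Med23*-deficient cells, was 1.87 and 2.03 higher with a pseudocount of 0.1. Some values that did not pass turned direction. In stage 3, *Eed* was 0.0326 with the upper quartile, 0.0995 Ballgown-style and -0.165 to 0.0117 with a library left out, *Cbx8* 0.18 and *Mbd5* 0.0325 Ballgown-style, and *Med23* -0.0793 on the TPM scale, -0.0345 without Gm23935 and -0.12 to 0.17 with a library left out. In *Med23*-deficient cells, *Eed* was -0.12 on the TPM scale, -0.0345 without Gm23935 and -0.13 to 0.0695 with a library left out, *Cbx8* 0.17 Ballgown-style and -0.36 to 0.16, *Cbx2* 0.092 Ballgown-style, *Bmi1* -0.17 to 0.0137 and *Kmt2a* -0.00283 to 0.45 with a library left out. Against stage 3, *Ezh1* was -0.0845 to 0.15, *Ezh2* -0.23 to 0.0398 and *Rnf2* -0.11 to 0.00924 with a library left out. Under a replicate block, the genes at an adjusted p were 19 in stage 3, 0 in *Med23*-deficient cells and 42 in the direct comparison, where the Polycomb list gene count was 0. Same-numbered libraries had correlated deviations from their group means (r) of 0.0845, 0.0310 and 0.161 in stage 3, 0.0346, 0.00429 and 0.144 in *Med23*-deficient cells and 0.0474, 0.0423 and 0.272 in the direct comparison. In stage 3 every library correlated best with its own number. In the other comparisons not every library did, so the numbers were not taken to pair them. Replicate 3 had negative r with the other numbers in all comparisons. Deviations from a group mean sum to 0 for each gene, so its positive r with its own number in part forces this. The causes of these differences were not tested.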
